A study of Mus musculus with 14 samples.

Results

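The epithelial integrin subunits were 10 genes chosen by symbol, the α subunits Itga1, Itga2, Itga3, Itga6 and Itgav and the β subunits Itgb1, Itgb4, Itgb5, Itgb6 and Itgb8, out of 37680 genes in the count table. Their transcripts were counted by RNA-seq in 14 libraries of mouse colon epithelium, which EDTA had freed from the underlying mesenchyme. Mice were adult WT, or Smad4 KO animals carrying a floxed Smad4 allele and a tamoxifen-inducible Cre that the villin promoter drives in intestinal epithelium, so Smad4 was to be lost from epithelial cells and kept in other cells. They drank water without additive (WT water, n = 4; Smad4 KO water, n = 4) or water with 2.5% dextran sulfate sodium (DSS), a polymer that injures the colon epithelium, for 3 days (WT DSS, n = 3; Smad4 KO DSS, n = 3). The labels do not say which animal each library came from, so the tests measure the spread between libraries.

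Integrins are receptors made of an α and a β chain that anchor epithelial cells to the extracellular matrix and signal from it. In gut epithelium, α6β4 holds the cell to laminin through hemidesmosomes, α3β1 and α6β1 bind laminin, α1β1 and α2β1 bind collagen, and the αv chain pairs with β5, β6 or β8, of which αvβ6 and αvβ8 are known to release active TGF-β from its latent complex. Smad4 is the shared partner of the SMAD proteins through which TGF-β and BMP receptors change transcription.

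The α and β chains of the collagen receptor, Itga2 and Itgb1, were the members whose genotypes did not overlap after DSS, Itga2 being the 1 member called there, and their promoters are shown for that reason. Among all genes tested 21.7% had no overlap there and 0.754% were called, so the lack of overlap does not set these 2 members apart. Each run holds 250 bases before and 50 bases after the start of the gene in RefSeq, on the gene's own strand, 5′ to 3′, in build GRCm38.p6. The Itga2 promoter lies at chr13:114932051-114932350 on the minus strand and the Itgb1 promoter at chr8:128685404-128685703 on the plus strand. Capitals mark GTCTG or its reverse complement CAGAC, the core of the DNA element that SMAD proteins bind, and GGAATG, the core of the TEAD motif.
Itga2: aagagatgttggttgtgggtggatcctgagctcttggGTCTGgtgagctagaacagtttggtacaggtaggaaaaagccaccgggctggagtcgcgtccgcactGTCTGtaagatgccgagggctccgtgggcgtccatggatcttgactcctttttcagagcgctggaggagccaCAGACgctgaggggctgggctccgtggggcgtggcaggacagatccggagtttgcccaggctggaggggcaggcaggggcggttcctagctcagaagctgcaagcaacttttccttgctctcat
Itgb1: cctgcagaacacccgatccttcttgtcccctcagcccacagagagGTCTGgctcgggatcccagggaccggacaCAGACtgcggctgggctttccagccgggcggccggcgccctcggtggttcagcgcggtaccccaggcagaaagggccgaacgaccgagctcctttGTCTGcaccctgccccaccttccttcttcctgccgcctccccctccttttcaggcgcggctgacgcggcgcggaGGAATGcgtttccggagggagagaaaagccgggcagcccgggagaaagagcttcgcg
Both promoters held the SMAD core 3 times. Among 32851 RefSeq promoters of the same length, 49.59% held it at least once, 16.24% at least 2 times and 3.9% at least 3 times. RefSeq promoters were found for 8 of the 10 members, not for Itga6 and Itgb4. The 8 members had 10 promoters between them, as Itga3 and Itgb6 had 2 each, and 6 of these 10 promoters held the core. Itgb1 also held GGAATG (or CATTCC, 14.66% of all promoters) 1 time, and a second promoter of Itga3 held the AP-1 motif TGANTCA (7.81% of all promoters). These matches describe letters, and binding was not measured. In mm9, the build of the counts, Itga2 (ENSMUSG00000015533) spans chr13:115626124-115722249 and lies next to Itga1 (ENSMUSG00000042284, chr13:115748287-115892172), both on the minus strand. Itgb1 (ENSMUSG00000025809) spans chr8:131209554-131257100 on the plus strand.

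Smad4 itself was counted first as a check of the labels. On the scale of normalized counts per 1000000 counts (CPM, with library totals scaled by TMM), Smad4 stood at 121, 159, 135 and 118 in the WT water libraries and at 170.1, 182 and 174 in WT DSS. It stood at 43.9, 40.3 and 42.8 in Smad4 KO DSS and at 37.0, 46.7 and 35.1 in Smad4 KO water replicates 2 to 4, but at 158 in replicate 1. The library labelled Smad4 KO water replicate 1 therefore carried Smad4 at the WT level, against its label. The members' values in the comparisons that used this library are given with and without it. Library totals ran from 12882827 to 26087231 counts. Mitochondrial genes took 30.6% and 32.8% of the counts in WT water replicates 3 and 4 and 21.4% in Smad4 KO water replicate 4, against at most 8.23% in the other 11 libraries. The summed level of 8 epithelial markers, Epcam, Cdh1, Vil1, Cldn7 and 4 keratins, lay between 12418 and 19890 CPM in all 14 libraries.

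Itgb1, the β chain shared by the laminin and collagen receptors, had the highest level per length in every group, and Itgb8 the lowest. Divided by exon length, Itgb1 stood at 42.3 ± 10.7 CPM per kb (SD, n = 4) in WT water, 64.6 ± 13.3 (n = 4) in Smad4 KO water, 61.9 ± 0.814 (n = 3) in WT DSS and 73.3 ± 1.11 (n = 3) in Smad4 KO DSS. Its range cleared that of the next member in 3 groups and overlapped that of Itga3 in WT water. The laminin-binding chains Itga3, Itga6 and Itgb4 followed at group means of 22.8 to 39.8 CPM per kb. Their order could not be told within either Smad4 KO group, because neighbouring ranges overlapped, and in both WT groups Itga6 lay below Itgb4 without overlap.

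Itgb5 came next at 11.5 to 13.6 CPM per kb as group means, below all 4 of these in every group with no overlap. Itga2, Itgav and Itgb6 formed a lower tier at 1.02 to 7.73 CPM per kb. Within it Itga2 changed place: it was the 8th of the 10 members in WT water, overlapping both its neighbours, and the 6th in each other group. In WT DSS and in Smad4 KO DSS its range cleared that of the next member. Itga1 lay at 0.339 to 0.796 CPM per kb and Itgb8 at 0.00334 to 0.0654 CPM per kb. The order of the 10 members in Smad4 KO water was the same without replicate 1.

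**Figure D1:**
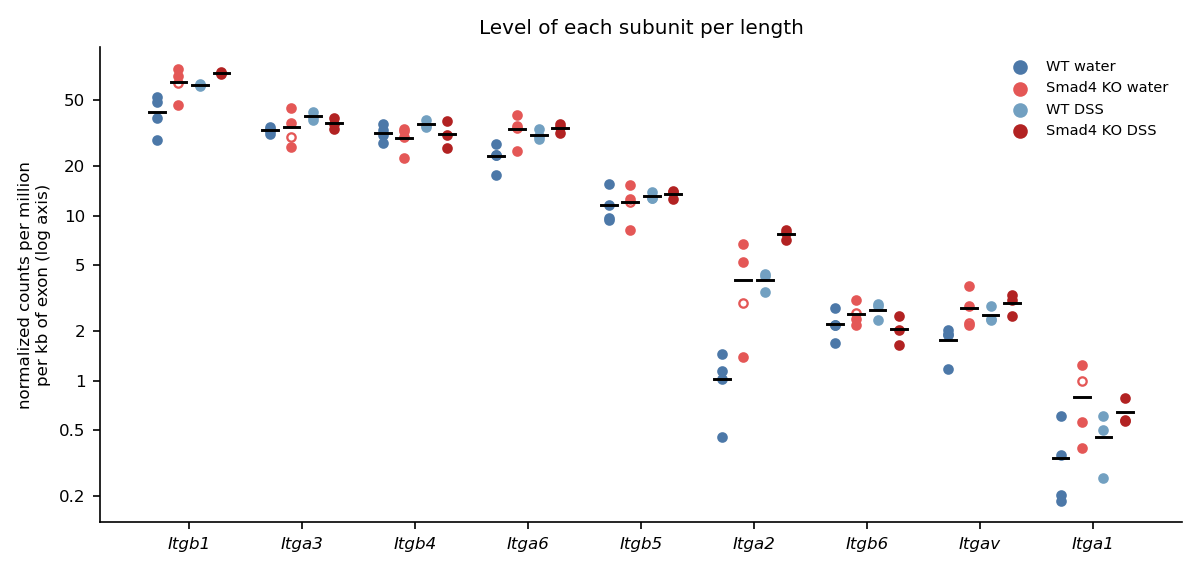
CPM per kb of exon (log axis) for 9 subunits, Itgb8 being left out because 3 libraries held none. Each point is a library, black bars are group means and the open point is Smad4 KO water replicate 1. Itgb1 was highest in each group, and Itga2 moved from a mean of 1.02 in WT water to 7.73 in Smad4 KO DSS.

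The first comparison asked how the subunits differed between Smad4 KO and WT epithelium after 3 days of DSS. Itga2, the α chain of the collagen receptor α2β1, was higher in Smad4 KO. The libraries held 18.1, 14.5 and 18.7 CPM in WT DSS and 30.0, 34.6 and 33.1 CPM in Smad4 KO DSS. Every Smad4 KO library lay above every WT library, and the means were 17.1 ± 2.26 and 32.6 ± 2.39 CPM (SD, n = 3 each). This was a log2 fold change of 0.93 (SE 0.13, adjusted p = 0.015 in edgeR's quasi-likelihood test with Benjamini-Hochberg adjustment over 15127 genes). It was the 1 member of 10 called at an adjusted p under 0.05, and 0.754% of all genes tested were called.

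The Itga2 call was lost in some of the alternatives. The adjusted p in edgeR was 0.072 without Smad4 KO DSS replicate 2 and 0.070 without replicate 3, at log2 fold changes of 0.88 and 0.92. It was 1.00 in edgeR when all 14 libraries were in 1 model, and 2.9e-07 in DESeq2.

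Its partner chain Itgb1 lay higher in Smad4 KO as well, by less. Itgb1 stood at 254, 249 and 255 CPM in WT DSS and at 299.5, 294 and 303 CPM in Smad4 KO DSS, so the groups did not overlap. Its log2 fold change of 0.25 (SE 0.09) did not pass the test (edgeR adjusted p = 0.24). Itga2 and Itgb1 were the 2 members of 10 with no overlap between the genotypes after DSS, where 21.7% of all genes tested had none.

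The β chain of the TGF-β-releasing receptor αvβ6, Itgb6, had the most negative value. It held 20.8, 16.5 and 20.2 CPM in WT DSS and 17.6, 14.5 and 11.7 CPM in Smad4 KO DSS. The groups overlapped, and the log2 fold change was -0.40 (SE 0.17, edgeR adjusted p = 0.30), running from -0.55 to -0.26 with single libraries left out. Its partner chain Itgav ran from 24.9 to 30.4 CPM in WT DSS and from 26.6 to 35.7 CPM in Smad4 KO DSS, with a log2 fold change of 0.23 (SE 0.14, edgeR adjusted p = 0.45), which ran from 0.14 to 0.35 with single libraries left out.

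Of the laminin receptors' chains none was called. The log2 fold change was 0.14 (SE 0.10) for Itga6, -0.14 (SE 0.10) for Itga3 and -0.20 (SE 0.13) for Itgb4, with overlapping groups and edgeR adjusted p-values between 0.51 and 0.55. With single libraries left out Itgb4 ran from -0.35 to -0.080, the outer values being without Smad4 KO DSS replicates 2 and 1. Itgb5 gave 0.04 (SE 0.09). Itga1, the other collagen-binding α chain, ran from 2.07 to 4.89 CPM in WT DSS and from 4.58 to 6.29 CPM in Smad4 KO DSS, with a log2 fold change of 0.49 (SE 0.31, edgeR adjusted p = 0.49). It was 0.21 without WT DSS replicate 1 and 0.75 without replicate 2. Itgb8 had at most 13 raw counts in any DSS library and is given by its counts further on. Over the 10 members the median log2 fold change was 0.10, beside -0.00058 over all genes tested.

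**Figure D2:**
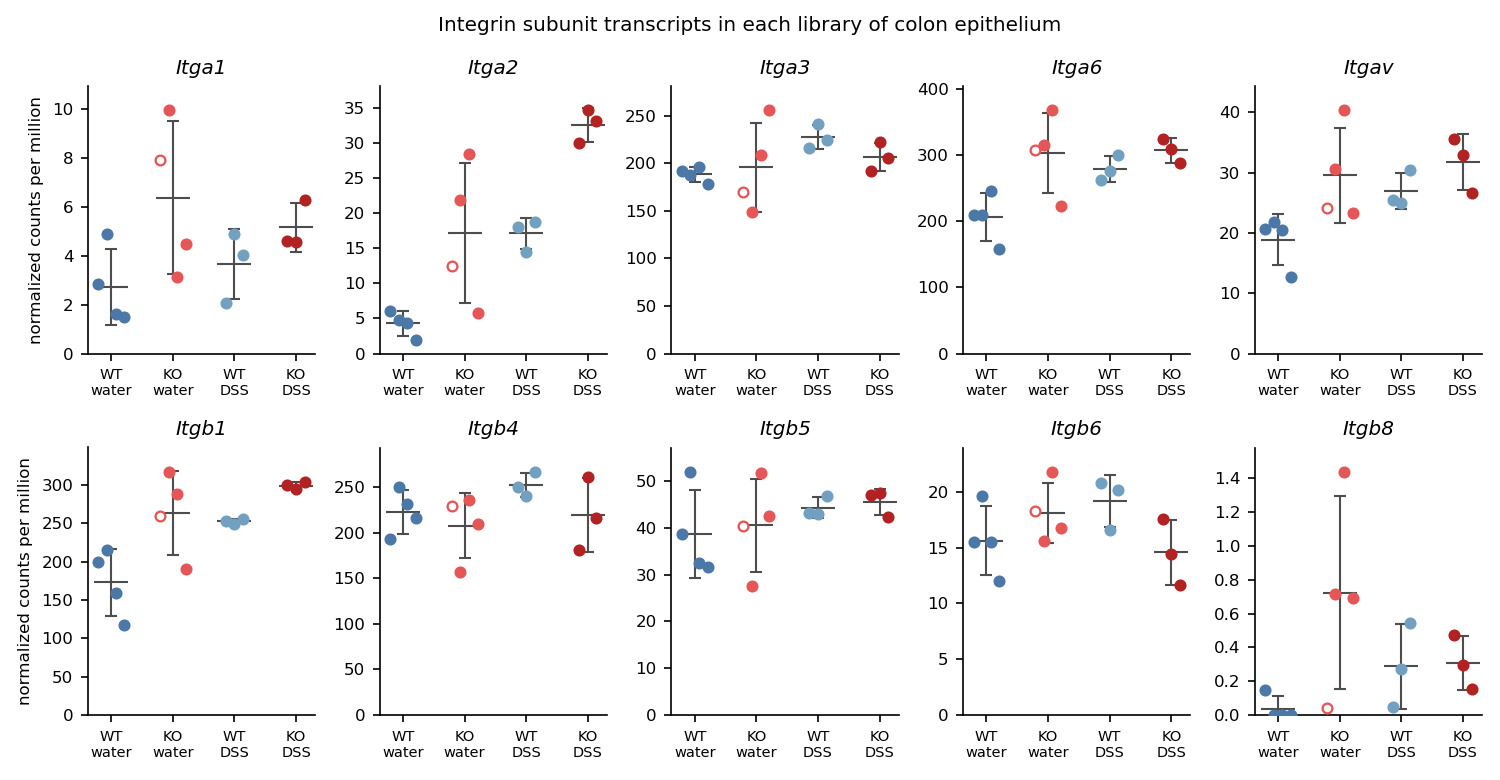
Normalized CPM of each subunit in the 14 libraries by group. Points are libraries, bars the mean ± SD, and the open point is Smad4 KO water replicate 1. Itga2 shows 3 separate WT and Smad4 KO libraries after DSS (at most 18.7 against at least 30.0), while Itga3, Itgb4 and Itgb5 overlap between genotypes under both treatments.

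The same genotypes were compared on water, where no member passed the test and the Smad4 KO libraries spread widely. Itga2 held 6.10, 4.79, 4.31 and 1.92 CPM in WT water and 12.5, 21.9, 28.4 and 5.82 CPM in Smad4 KO water. Smad4 KO water replicate 4 lay inside the WT range and the other 3 above it, replicate 1 with its WT level of Smad4 included. The log2 fold change was 1.97 (SE 0.46), with an edgeR adjusted p of 0.15, and without replicate 1 it was 2.10 (SE 0.49, adjusted p = 0.14). Without replicate 4 it was 2.26 and passed the edgeR test (adjusted p = 0.023), and with all 4 libraries it passed in DESeq2 (adjusted p = 0.0026).

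The lowest Itga2 level of each group on water was in a library with over 20% mitochondrial counts. With all 3 such libraries left out, an alternative added after the data were seen, the log2 fold change of Itga2 was 1.94 and the edgeR adjusted p was 0.053. The part of RNA quality in the spread was not tested.

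Itgb1 split the libraries on water in the same way. It stood at 199.9, 215, 159 and 118 CPM in WT water and at 259, 317, 288 and 189.9 CPM in Smad4 KO water. Again replicate 4 of Smad4 KO water lay within the WT range and the other 3 above it. This gave a log2 fold change of 0.61 (SE 0.22, edgeR adjusted p = 0.18), and 0.62 (SE 0.25, edgeR adjusted p = 0.24) without replicate 1.

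Itgav, the vitronectin and latent TGF-β receptor chain, was the 1 member whose groups did not overlap on water, where 10.4% of all genes had none. Its levels were 20.6, 21.8, 20.4 and 12.6 CPM in WT water and 24.1, 30.6, 40.3 and 23.3 CPM in Smad4 KO water. All 4 Smad4 KO libraries lay above the highest WT library, by as little as 23.3 against 21.8. The log2 fold change was 0.65 (SE 0.23, edgeR adjusted p = 0.18), and 0.73 without replicate 1 (edgeR adjusted p = 0.21).

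Itga6, the α chain of the laminin receptors, held 209.9, 209.9, 246 and 158 CPM in WT water and 308, 314, 368 and 223 CPM in Smad4 KO water. Replicate 4 lay inside the WT range and the other 3 Smad4 KO libraries above it, at a log2 fold change of 0.56 (SE 0.19, edgeR adjusted p = 0.17), or 0.55 (adjusted p = 0.24) without replicate 1. Itgb4, with which it pairs in hemidesmosomes, had a value near 0 instead. It ran from 193 to 250.2 CPM in WT water and from 157 to 236 CPM in Smad4 KO water, with a log2 fold change of -0.10 (SE 0.17, edgeR adjusted p = 0.77), or -0.15 (adjusted p = 0.72) without replicate 1. The ratio of Itga6 to Itgb4, each per exon length, was 0.723 ± 0.134 in WT water and 1.16 ± 0.308 in Smad4 KO water (SD, n = 4 each), with ranges of 0.570 to 0.844 and 0.828 to 1.56. Without replicate 1 the Smad4 KO water ratio was 1.20 ± 0.365 (n = 3). After DSS the ratio was 0.860 ± 0.0395 in WT and 1.12 ± 0.246 in Smad4 KO (SD, n = 3 each), and these ranges, 0.815 to 0.890 and 0.922 to 1.39, did not overlap. The ratio was given no test, and 21.7% of all genes tested had no overlap between the genotypes after DSS.

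Itga1 reached at most 4.88 CPM in WT water and ran from 3.12 to 9.95 CPM in Smad4 KO water, with a log2 fold change of 1.20 (SE 0.47, edgeR adjusted p = 0.19), or 1.08 (adjusted p = 0.30) without replicate 1. Itga3, Itgb5 and Itgb6 gave 0.06, 0.07 and 0.21, and 0.12, 0.067 and 0.20 without replicate 1. In all, 0 of 10 members were called by edgeR on water, and over all genes edgeR called 1 gene, which is 0.00661%. DESeq2 called 1 member, Itga2, and 768 genes or 5.08%. Of the 9 members other than Itgb8, whose passing of the filter is described next, 5 had an unadjusted p under 0.05 in edgeR, beside 3084 genes or 20.4%. Without replicate 1 of Smad4 KO water edgeR called 13 genes, or 0.0859%, again with no member among them. Of the same 9 members Itgav had no overlap then, where 14.9% of all genes had none, and 4 had an unadjusted p under 0.05, beside 18.0% of all genes. The median log2 fold change over the 9 was 0.56, or 0.55 without replicate 1, beside -0.0072 and -0.011 over all genes.

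Itgb8, the β chain that with αv also releases TGF-β, was close to the limit of these libraries. It had 4, 0, 0 and 0 raw counts in WT water, 1, 12, 35 and 13 in Smad4 KO water, 1, 6 and 13 in WT DSS and 9, 6 and 3 in Smad4 KO DSS. The higher counts were in Smad4 KO water replicates 2 to 4, and replicate 1 lay within the WT range. Itgb8 passed the filter of 10 counts in at least 3 libraries through those 3 libraries and WT DSS replicate 3, so differences from Smad4 KO water were built into its passing. The counts of called members still hold it, and it is left out of the other counts of members that involve that group. Its log2 fold change on water, 3.71 (SE 1.23, edgeR adjusted p = 0.16), rests on a WT group with 3 libraries at 0 counts and is no bound on the size.

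DSS was then compared with water within each genotype. In WT epithelium Itga2 moved from 6.10, 4.79, 4.31 and 1.92 CPM on water to 18.1, 14.5 and 18.7 CPM with DSS. All 3 DSS libraries lay above the 4 water libraries, and the means were 4.28 ± 1.74 (SD, n = 4) and 17.1 ± 2.26 CPM (n = 3). The log2 fold change of 1.96 (SE 0.31) stood just outside the threshold, at an edgeR adjusted p of 0.059. It passed in DESeq2 (adjusted p = 4.6e-07) and in edgeR without WT water replicate 2 (0.045) or replicate 4 (0.048). Without the 2 WT water libraries rich in mitochondrial counts it was 1.65 (edgeR adjusted p = 0.056).

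Itga3, Itga6, Itgav and Itgb1 were also higher in every WT DSS library than in any WT water library. That made 5 of 10 members without overlap, where 24.4% of all genes had none. Their log2 fold changes were 0.27 for Itga3, 0.44 for Itga6, 0.51 for Itgav and 0.55 for Itgb1, each with an edgeR adjusted p between 0.13 and 0.17. Without the 2 WT water libraries rich in mitochondrial counts they were 0.27, 0.41, 0.35 and 0.28 (adjusted p from 0.11 to 0.21), so Itgb1 had 0.28 in place of 0.55. With a block on the prefix of the library names Itgav and Itgb1 were 0.25 and 0.28. Itgb6, Itgb5 and Itgb4 gave 0.29, 0.19 and 0.18 with overlapping groups, and Itga1 gave 0.40 (SE 0.46). No member passed edgeR, 5 had an unadjusted p under 0.05 and DESeq2 called 1, Itga2. Over all genes edgeR called 0 (0%), although 3663 (24.2%) had an unadjusted p under 0.05 and DESeq2 called 1777 (11.8%). The median log2 fold change was 0.40 over the 9 members other than Itgb8 and -0.014 over all genes. Levels of immune markers also moved between these groups, in both directions and with none called. The summed level of 5 B and plasma cell markers was 5.27 to 11.5 CPM in WT water and 1.56 to 2.15 CPM in WT DSS. The 4 of them that were tested had a median of -1.99 on the log2 scale, and none was called. The leukocyte gene Ptprc had a value of 0.91 (edgeR adjusted p = 0.28). Of 8 T and NK cell markers 7 were positive (median 0.37), and of 6 tested myeloid markers 5 were (median 0.32). The part of immune cells in the integrin values was not tested.

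In Smad4 KO epithelium Itga2 went from 12.5, 21.9, 28.4 and 5.82 CPM on water to 30.0, 34.6 and 33.1 CPM with DSS. The groups did not overlap, although the highest water library, at 28.4, was close to the lowest DSS library. The DSS libraries all bore the name prefix D and no Smad4 KO water library did, so treatment and prefix cannot be told apart within this genotype. Itga2 was the 1 member without overlap, where 8.88% of all genes had none, and its log2 fold change of 0.92 (SE 0.41) did not pass (edgeR adjusted p = 0.76). Without Smad4 KO water replicate 1 it was 0.80 (adjusted p = 0.79), and of the 9 members other than Itgb8 it was again the 1 without overlap, where 13.7% of all genes had none. Itgb6 had a negative log2 fold change, -0.31 (SE 0.21, edgeR adjusted p = 0.83), as did Itga1 at -0.30 (SE 0.39). Without replicate 1 these were -0.31 and -0.18. The other 6 members apart from Itgb8 lay between 0.02 and 0.18, and between 0.013 and 0.17 without replicate 1. edgeR called 0 members and 0.00661% of all genes with or without replicate 1. DESeq2 called 0 members and 0.47% of all genes. At an unadjusted p under 0.05 there was 1 member of the 9, or 0 without replicate 1, beside 6.45% of all genes.

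**Figure D3:**
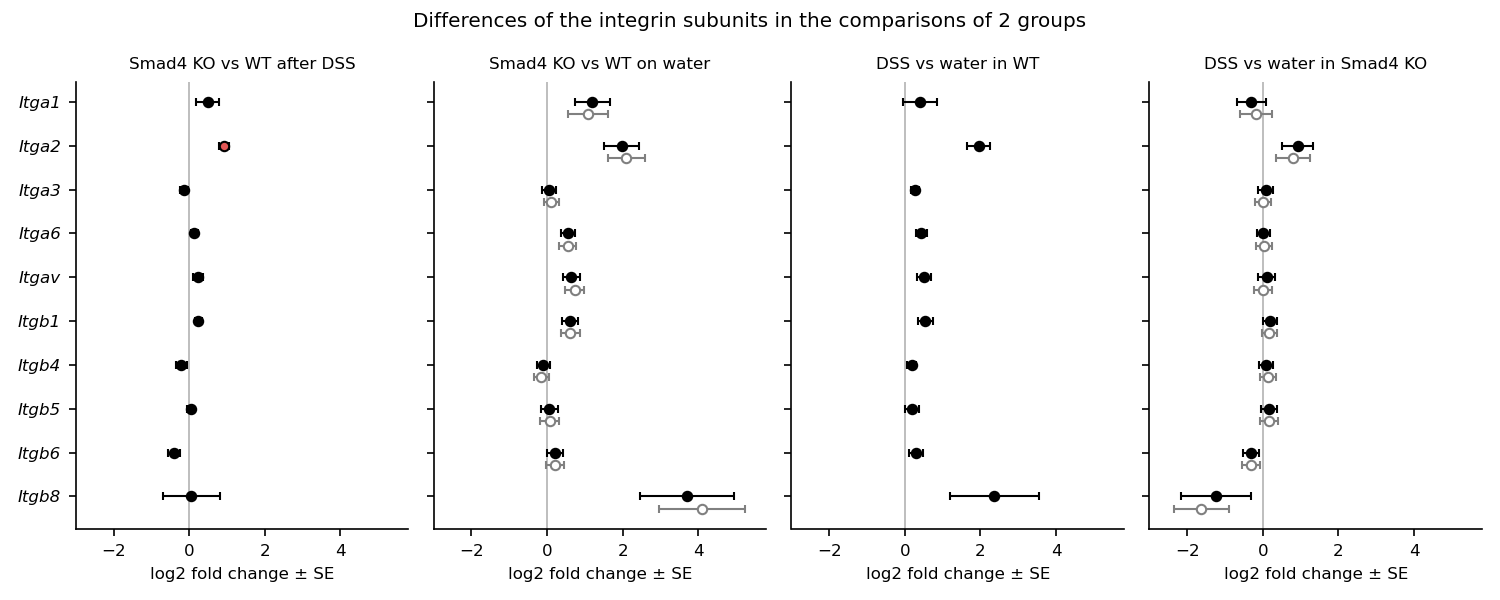
Log2 fold change ± SE of the 10 subunits in 4 comparisons of 2 groups, edgeR. Filled points use all libraries as labelled, open points leave out Smad4 KO water replicate 1, and red marks an adjusted p under 0.05. Itga2 after DSS, at 0.93, is the 1 red point.

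Whether the response to DSS differed between the genotypes was tested as an interaction over all 14 libraries. None of the members passed. The difference, Smad4 KO minus WT, was -1.03 for Itga2 (SE 0.56, edgeR adjusted p = 0.66), -0.60 for Itgb6 (SE 0.28, adjusted p = 0.64) and -0.36 for Itgb1 (SE 0.27, adjusted p = 0.73). Without Smad4 KO water replicate 1 these were -1.16, -0.60 and -0.37. All 9 members other than Itgb8 had a negative estimate, with a median of -0.41 both with and without that replicate, beside -0.0085 and -0.0023 over all genes. edgeR called 0 of 10 members and 0.00661% of all genes with or without Smad4 KO water replicate 1. At an unadjusted p under 0.05 there was 1 of the 9, Itgb6, beside 7.5% of all genes, and without that replicate 0, beside 8.43%. DESeq2 called 0 members and 0.0529% of all genes. The genotype comparisons and the DSS comparisons share their libraries, so their values are not independent of each other.

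The single gene behind each of the 0.00661% values was Rpl34, a ribosomal protein gene, and it was named after its values were seen. Such genes have near-identical copies, and the part of these copies in its counts was not tested.

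The share of each chain showed the same order of groups for Itga2. It made up 1.69% ± 0.624 (SD, n = 4) of the summed level of the 5 α chains per length in WT water, 5.29% ± 2.76 (n = 4) in Smad4 KO water, or 5.65% ± 3.27 (n = 3) without replicate 1, 5.23% ± 0.774 (n = 3) in WT DSS and 9.48% ± 0.591 (n = 3) in Smad4 KO DSS. Smad4 KO DSS libraries, from 8.82%, lay above all other libraries, the highest of which was 7.65%. Itga3 and Itga6 made up most of the α level, with group means of 44.3% to 56.3% and 38.5% to 44.5%. Among β chains Itgb1 made up 47.7% to 61.1% and Itgb4 25.9% to 36.7% as group means. The ratio of Itgb6 to Itgb5, 2 partners of αv, was 0.204 ± 0.0230 in WT DSS and 0.150 ± 0.0239 in Smad4 KO DSS (SD, n = 3 each), with ranges of 0.182 to 0.228 and 0.130 to 0.177. On water it was 0.193 ± 0.0219 in WT and 0.216 ± 0.0354 in Smad4 KO (n = 4 each), or 0.217 ± 0.0434 without replicate 1, with overlapping ranges. This ratio was given no test, and after DSS 21.7% of all genes tested had no overlap between the genotypes.

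Across the 14 libraries the members ran from chains that moved closely with Itga2 to chains that did not. Pearson's r of log2 CPM was 0.94 between Itga2 and Itgb1, 0.90 between Itga2 and Itga6, 0.90 between Itga2 and Itgav and 0.93 between Itga6 and Itgav. Itga1, Itgb8, Itgb5 and Itgb6 lay between, with r of 0.52, 0.47, 0.38 and 0.20 with Itga2. It was 0.12 between Itga2 and Itga3, -0.01 between Itga2 and Itgb4 and -0.01 between Itga6 and Itgb4. Itgb4 had its highest r among the members with Itgb5 (0.59) and Itga3 (0.56). The 14 points share group, library size and RNA quality, so these are descriptions, with no test. Without Smad4 KO water replicate 1 the first value was 0.95.

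**Figure D4:**
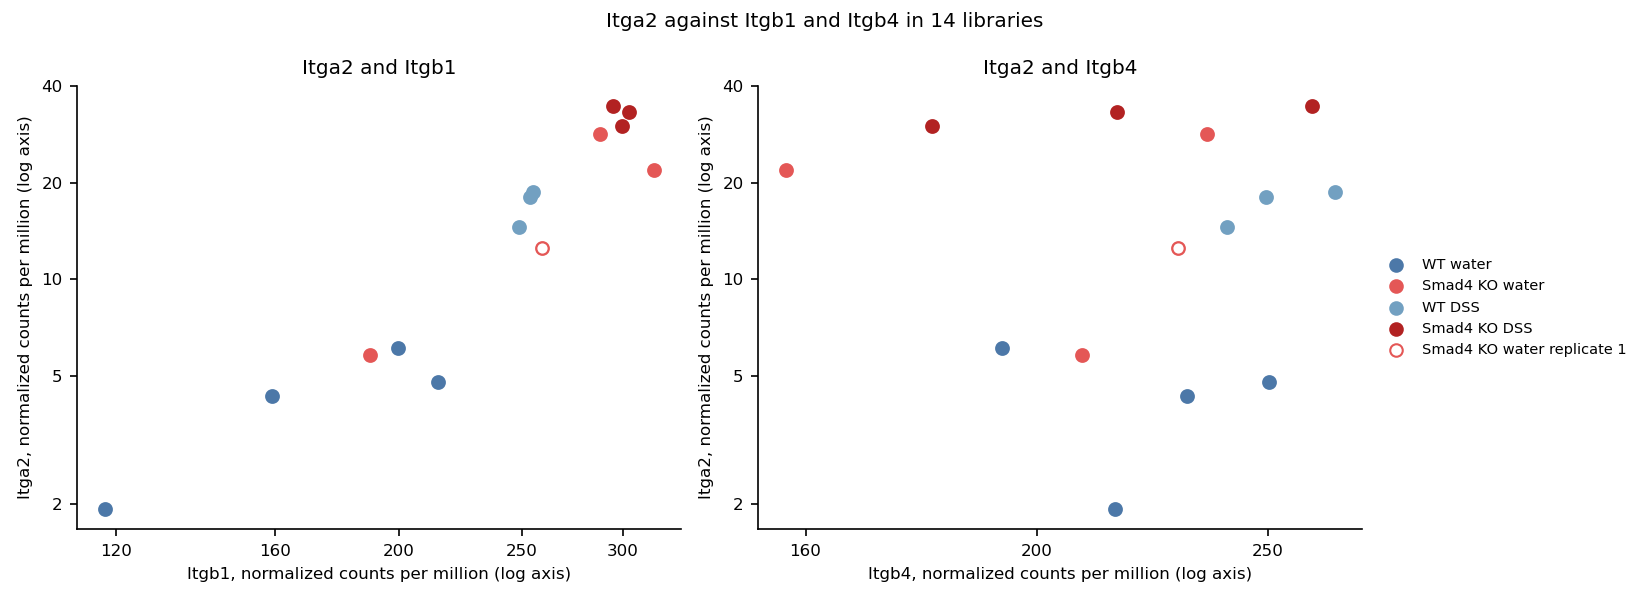
Itga2 against Itgb1 (left) and Itgb4 (right) in 14 libraries, normalized CPM on log axes. Colours are the 4 groups and the open point is Smad4 KO water replicate 1. The libraries with more Itga2 had more Itgb1 (r = 0.94), an order not seen with Itgb4 (r = -0.01).

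The 2 genes closest to each member were taken over the same libraries among 11566 genes with at least 50 counts on average. For Itga2 they were Sh3bgrl2 (r = 0.98) and Srp72 (r = 0.97), for Itgb1 Adam9 (0.98) and Fubp1 (0.97), for Itga6 Ankrd17 (0.98) and Slmap (0.98), and for Itgav Hipk3 (0.98) and Clcn3 (0.96). Itga3 was closest to Actb (0.93) and Ksr1 (0.89), and Itgb4 to Fam83h (0.89) and Flii (0.88). Itgb5 was closest to Slc44a4 (0.91) and Cldn23 (0.89), Itga1 to Fam53c (0.89) and Vopp1 (0.88), Itgb6 to Clic5 (0.84) and Klf6 (0.83) and Itgb8 to Twf1 (0.85) and C030046E11Rik (0.85). These are the highest of many correlations and carry no test.

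The ligands and partners of the integrins were read from 7 lists. After DSS the collagen chains, ligands of α1β1 and α2β1, had 3 of 6 tested genes higher in Smad4 KO, and the median of the 6 was 2.04 on the log2 scale. These were Col3a1 (4.14, edgeR adjusted p = 0.0080), Col1a1 (2.60, 0.046) and Col1a2 (3.12, 0.046), all fibrillar collagens. They averaged 30.7, 12.6 and 19.9 raw counts a library and fall below the 50 counts of the naming rule, so they were named after their values were seen. All 3 passed the filter of 10 counts in at least 3 libraries only with Smad4 KO libraries. A higher level in Smad4 KO was thus built into their being tested, and so into the count of calls and the median of the list. Col1a1 and Col1a2 lost the call whichever of the 6 libraries was left out. Col3a1 kept it in each of these fits, and lost it with 1 model of 14 libraries (adjusted p = 0.36), 1 model of 13 and the prefix block. Col3a1 stood at 0.0919, 0.0457 and 0.253 CPM in WT DSS and at 2.14, 2.66 and 2.49 CPM in Smad4 KO DSS. The basement membrane collagens gave 0.67 for Col4a1 (edgeR adjusted p = 0.36) and 1.49 for Col4a2 (0.052).

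Of 8 laminin chains tested, 1 was called after DSS. Lama4, a laminin α chain, stood at 1.15, 0.685 and 1.77 CPM in WT DSS and at 3.97, 5.46 and 5.33 CPM in Smad4 KO DSS, with no overlap (log2 fold change 2.02, SE 0.34, edgeR adjusted p = 0.038). The call was lost in 5 of the 6 fits without 1 library, the highest adjusted p being 0.14, and with 1 model of 14 libraries (0.36) or the prefix block (0.18). WT water held 3.46 to 5.86 CPM, so the Smad4 KO DSS libraries lay near the level of WT on water. Lamb3, the most counted laminin chain and part of the hemidesmosome ligand laminin-332, had a log2 fold change of -0.14 (edgeR adjusted p = 0.65).

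None of the other lists held a called gene after DSS. The median log2 fold change was -0.25 over 13 other integrin subunits, 0.01 over 23 activators and adaptors that link integrins to actin, -0.08 over 4 hemidesmosome partners, 0.09 over 6 αv ligands and latent TGF-β genes and 0.04 over 6 other matrix receptors. Their most counted genes were Itga5, the fibronectin receptor chain (-0.43, edgeR adjusted p = 0.17), the actin crosslinker Actn4 (-0.18, 0.48), the hemidesmosome linker Plec (-0.22, 0.49), Tgfb1 (-0.02, 0.98) and the proteoglycan Sdc4 (-0.14, 0.57). In each other comparison edgeR called 0 genes of all 7 lists. On water the collagen list had a median of 0.96 and the laminin list 0.21, or 0.99 and 0.13 without Smad4 KO water replicate 1. The collagen medians again include the collagens whose passing of the filter needed Smad4 KO libraries.

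**Figure D5:**
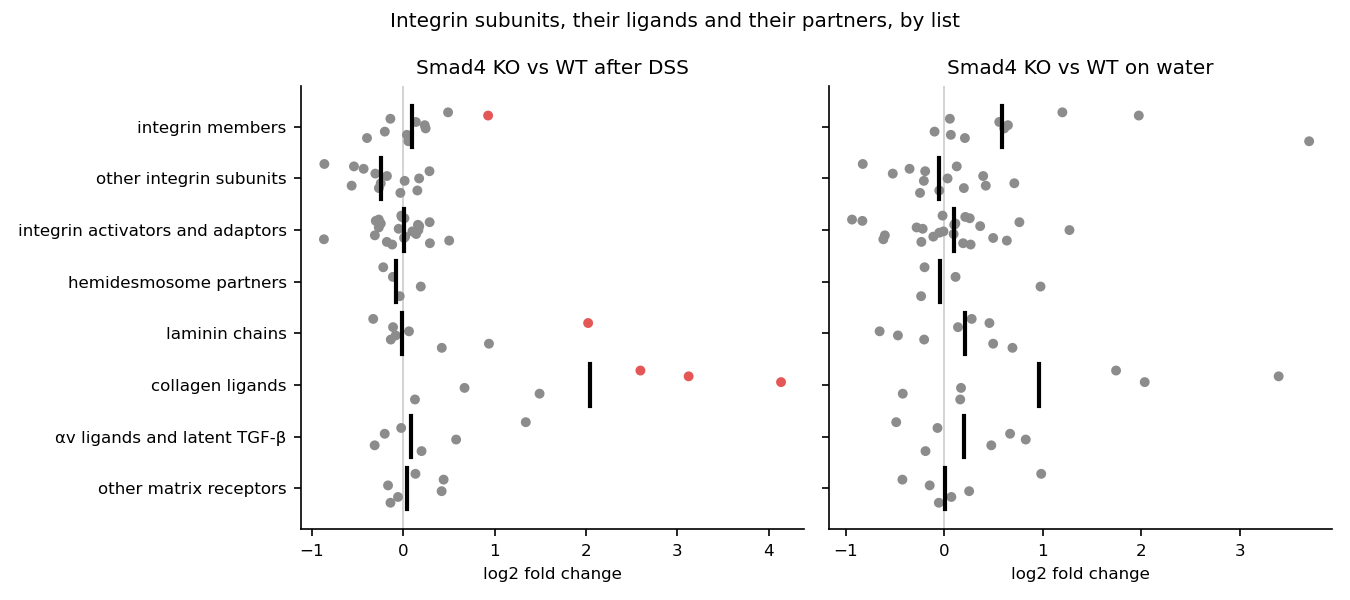
Log2 fold change of each tested gene of the integrin subunits and 7 lists of ligands and partners, Smad4 KO against WT after DSS (left) and on water (right). Points are genes, red marks an adjusted p under 0.05 in edgeR and black bars are list medians. After DSS the collagens have the highest median, 2.04, and the red points are Itga2, Lama4 and 3 collagens. These 3 collagens passed the filter on counts only with Smad4 KO libraries, which favours a high value.

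Fibroblast markers differed between the genotypes beside these values. The summed level of 8 fibroblast markers was 8.40 to 10.5 CPM in WT DSS and 14.7 to 22.5 CPM in Smad4 KO DSS, and 6.67 to 10.4 CPM in WT water against 11.1 to 38.0 CPM in Smad4 KO water, with or without replicate 1. Of the 6 tested, 3 were called higher after DSS, and these were the same 3 collagens as above. These 3 and Col6a1 passed the filter on counts only with Smad4 KO libraries, so a higher level there was built into their being tested. Of the 4 markers that are not collagens, Dcn, a proteoglycan, held 0, 0.457 and 1.22 CPM in WT DSS and 8.73, 3.79 and 1.42 CPM in Smad4 KO DSS, with no overlap (log2 fold change 3.01, edgeR adjusted p = 0.16). On water Dcn reached at most 0.651 CPM in WT and ran from 1.07 to 11.5 CPM in Smad4 KO (3.28, adjusted p = 0.15), and it too was named after its values were seen. Pdgfra reached at most 0.534 CPM and Lum at most 0.0534 CPM in any library, each with libraries at 0, and Pdgfrb lay between 5.78 and 10.6 CPM. Of 8 epithelial markers, Krt20, a keratin of differentiated surface cells, was lower in Smad4 KO after DSS (log2 fold change -0.86, edgeR adjusted p = 0.030) and the other 7 were not called. None of the 8 had a positive log2 fold change, and their median was -0.12, beside -0.00058 over all genes tested. Krt20 lost the call in 4 of the 6 fits without 1 library, with an adjusted p of up to 0.13. It also lost it in edgeR with the replicate block (adjusted p = 0.074) and the prefix block (0.42). With 1 model of 14 libraries the adjusted p was 0.34, and with 1 model of 13 it was 0.25. The part of these cells in the integrin values was not tested, and in bulk RNA fewer cells of a type and less RNA per cell cannot be told apart.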

How the data were processed

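The authors deposited 1 table of raw counts per gene, made from poly(A) libraries read as paired ends, aligned with HISAT2 to mm9 and counted with featureCounts per the labels and the study's methods; the strand setting was not given in the sources used here. A gene was tested where 3 or more of the 14 libraries held 10 counts of it (15127 genes), and library sizes were scaled by TMM. The main test was edgeR 4.0.16's quasi-likelihood test on the 2 groups compared, in R 4.3.3, with Benjamini-Hochberg adjustment and a threshold of 0.05, and the difference of responses was fitted over 14 libraries. Alternatives were DESeq2 1.42.0, other scalings, filters and fits, and leaving out each library. Named genes were the 10 members, Smad4, from each list the most counted gene and up to 3 called genes with at least 50 counts on average, and for each member the 2 nearest genes by Pearson's r of log2 CPM (prior count 2). The members and lists were chosen with earlier results of these data known. Exon lengths came from GENCODE on the files' build and promoters from RefSeq on GRCm38.p6. On simulated counts after DSS with 100 genes changed by a log2 fold of 1 and 100 by 2, the test recovered 34 and 92. For the difference of responses it recovered 16 and 86. Values rest on 12882827 to 26087231 counts a library.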

Additional observations from a re-analysis of the deposited data

Results flagged for a closer look

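Itgav in WT water had a lowest library of 12.61 CPM, far from the other 3 at 20.4 to 21.8 CPM. It was replicate 4, with 32.8% mitochondrial counts. Itgb8 in WT water had a highest library of 0.1479 CPM, which was 4 raw counts where the other 3 libraries had 0. Of 20 groups of 4 libraries checked for a value far from the rest, these were 2, and chance gives about 1 in 20.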

How the results depend on the processing

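Over the 50 member values (10 members, 4 comparisons and the difference of responses), 910 alternative values were computed. Some repeat each other, where different alternatives left out the same library. Direction and side of the threshold held in 849, 22 passed the threshold where the main value had not, 5 no longer passed it and 34 changed sign. The 5 were Itga2 after DSS, whose log2 fold change stayed between 0.82 and 1.00 over its 16 alternatives while its adjusted p ran from 2.9e-07 to 1.00. The causes were not tested.

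Members called after DSS (1) became 0 with 1 model of all 14 libraries, with 1 model of 13 libraries and with a block on the prefix of the library names (Itga2 adjusted p = 0.34), and ran from 0 to 1 with single libraries left out. Genes called after DSS (114) became 499 in DESeq2, 2 and 8 in the 14- and 13-library models, 333 with no filter, 57 with the replicate block, 1 with the prefix block and 41 within prefix D, and ran from 27 to 100 with single libraries left out. Within prefix D, which after DSS is the same fit as without WT DSS replicate 3, Itga2 had a log2 fold change of 1.00 (edgeR adjusted p = 0.039).

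On water, members called (0) became 1 in DESeq2, with or without Smad4 KO water replicate 1, 3 and 2 in the 14- and 13-library models, 1 with no filter, 1 with the replicate block (Itga2 adjusted p = 0.040) and 5 with the prefix block, and ran from 0 to 3 with single libraries left out, 3 being without Smad4 KO water replicate 4 (Itga2, Itga6 and Itgb1). Itgb8 was called in 1 of its 19 alternatives on water (edgeR adjusted p = 0.031) and is among the members in these counts. A difference from Smad4 KO water was built into its passing the filter. Genes called on water (1) became 768 in DESeq2 (625 without that replicate 1), 1276, 1116, 38, 473 and 2018 in the same order of fits, and 101 with the 3 libraries rich in mitochondrial counts left out, and ran from 1 to 1739 with single libraries left out, 1739 being without Smad4 KO water replicate 4.

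For DSS in WT, members called (0) became 1, Itga2, in DESeq2, with no filter and with the replicate block (adjusted p = 0.029), and ran from 0 to 1 with single libraries left out. Genes called (0) became 1777 in DESeq2, 346 with no filter, 54 with the replicate block, 2 with the prefix block and 5 within prefix D, and ran from 0 to 354, the highest without WT water replicate 2. For DSS in Smad4 KO, genes called (1) became 71 in DESeq2 (64 without Smad4 KO water replicate 1), 10 and 5 in the 14- and 13-library models, 16 with no filter and 10 with the replicate block, and ran from 1 to 3. For the difference of responses, genes called (1) became 8 in DESeq2, 2 with no filter and 32 without the 3 libraries rich in mitochondrial counts, and ran from 1 to 4. Members called stayed at 0 in these last comparisons.

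The sign changed for these log2 fold changes. With the 3 libraries rich in mitochondrial counts left out, Itga3 and Itgb5 on water were -0.11 and -0.18, Itga1 and Itgb5 with DSS in WT -0.071 and -0.033, Itga6 with DSS in Smad4 KO -0.10 and Itgb5 in the difference of responses 0.22. With the prefix block, Itga1 and Itgb5 with DSS in WT were -0.15 and -0.076 (the same within prefix D), Itgav, Itgb1 and Itgb5 with DSS in Smad4 KO -0.028, -0.26 and -0.21, and Itgb4 in the difference of responses 0.0092. With the replicate block, Itga6 with DSS in Smad4 KO was -0.10. With single libraries left out, Itgb8 after DSS ran from -0.43 to 0.90. On water Itga3 ran from -0.10 to 0.17, Itgb4 from -0.17 to 0.013 and Itgb5 from -0.072 to 0.24. With DSS in Smad4 KO Itga3 ran from -0.034 to 0.23, Itga6 from -0.10 to 0.12 and Itgb4 from -0.066 to 0.20. In the difference of responses Itgb4 ran from -0.25 to 0.020 and Itgb5 from -0.20 to 0.11.

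Replicate numbers were not taken to pair libraries: deviations of same-numbered libraries from their group means correlated between -0.08 and 0.06, except 0.36 for number 4 on water. That pair was also the pair of libraries with prefix MP. The prefixes of the library names are not explained in the labels. In Smad4 KO every DSS library had prefix D and the water libraries had Z, MS or MP. Treatment and prefix therefore cannot be told apart within Smad4 KO, which also enters the difference of responses. On water prefix D occurred in WT libraries only. Fits without the 3 libraries rich in mitochondrial counts were alternatives added after the data were seen. So was the DESeq2 fit without Smad4 KO water replicate 1. Library sizes without mitochondrial genes and robust edgeR were added then too, and changed no member's call. The edgeR fits without Smad4 KO water replicate 1 were among the planned ones, and its Smad4 counts singled that library out. Itgb8 is limited by depth, at no more than 35 counts in any library.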
